A study of Mus musculus with 6 samples.

Results

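The interleukin 1 (IL-1) and interleukin 18 (IL-18) axis was read in RNAseq of immortalized mouse pancreatic fibroblasts as 10 named genes, matched by symbol to the table of gene counts. Of these, 7 genes (Il18, Il18bp, Il33, Il1r1, Il1rap, Il1rl1 and Irak1) had a row under their symbol, among 14831 genes in the table. Sigirr had a row without a symbol and was found by its Ensembl identifier (ENSMUSG00000025494), which gave 8 of 10. Il1rn and Casp1 had no row under symbol or identifier and were not analysed here. The study asked how loss of the Hedgehog (HH) transcription factors GLI2 and GLI3 changes what pancreatic fibroblasts express.

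The 6 libraries were 3 labelled WT and 3 labelled KO with the genotype Gli2-/-;Gli3-/-, all of mixed strain, each from a separate well of confluent cells in serum-containing medium. The study's methods describe such lines as grown out from the pancreas of adult mice with floxed Gli alleles and then immortalized. They were infected with an eGFP adenovirus together with a dsRed lentivirus (control) or a Cre adenovirus (KO), and infected cells were sorted. Vector and genotype cannot be told apart in this design, and p-values measure the spread between wells, which says nothing of other lines made the same way. In bulk RNA, fewer cells expressing a gene and less RNA per cell cannot be told apart either.

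IL-1 family cytokines are alarm signals of damaged or infected tissue. IL-18 is made as a precursor that caspase-1, the enzyme encoded by Casp1, cuts to its active form inside inflammasomes, whereas IL-33 is held in the nucleus and released when cells are injured. IL-1 acts through IL1R1 and IL-33 through ST2 (encoded by Il1rl1), and both receptors need the shared accessory chain IL1RAP before the adaptor MYD88 and kinases such as IRAK1 carry the signal to NF-kB. IL-18 binding protein (Il18bp) traps IL-18, and SIGIRR dampens signalling at the receptors. In pancreatic cancer, IL-1 from tumour cells is known to drive the inflammatory state of fibroblasts.

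Library totals ran from 31728420 to 33905521 counts in the WT-labelled libraries and from 32781730 to 41035931 in the KO-labelled ones, so 3 counts in a library are at most 0.0957 CPM, a count scaled to the size of its library. Gli2 and Gli3 counts, summed over whole genes, were higher in the KO-labelled libraries, by 1.05 (standard error, SE, 0.04) and 1.71 (SE 0.05) on the log2 scale, against the genotype named by the label. Such sums also hold reads from any exons a deletion leaves. The HH target genes went the other way: Ptch1 had 7046, 7912 and 7834 counts in the WT-labelled libraries and 2732, 3416 and 2851 in the KO-labelled ones, and Hhip had 39, 42 and 44 counts against 0 in each. Gli1, itself an HH target, had a log2 fold change of -2.40. The groups are named by label for this reason, and each direction rests on those labels. Fibroblast markers were abundant, with 8 of 10 listed and summed levels of 44822 to 47236 CPM in the WT-labelled libraries and 36783 to 38533 CPM in the KO-labelled ones. Of the fibroblast markers, Pdpn and Fap had no row and Thy1 was too low to be tested. Of the 7 tested, 4 were lower in the KO-labelled libraries and 0 higher, at an adjusted p under 0.05 (edgeR) and at least 1.5-fold. That is 57.1%, beside 17.7% of all genes tested. The 4 were Dcn (-1.55 on the log2 scale), Col3a1 (-0.94), Pdgfra (-0.90) and Pdgfrb (-0.66). Of 10 macrophage markers 4 had a row, and the defining genes Ptprc and Adgre1 had none.

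Il18 was the member that differed most between the groups, and it was higher in the KO-labelled libraries. Il1rl1, encoding the IL-33 receptor, was also called higher, and the IL-1 receptor genes Il1r1 and Il1rap were modestly higher. Il33 and Irak1 were modestly lower. For Il18bp the difference missed the test, and Sigirr was too low to be tested. A gene was called at a Benjamini-Hochberg adjusted p under 0.05 from the quasi-likelihood test of edgeR over 14289 genes, together with a change of at least 1.5-fold. By that rule 2 of the 7 members tested were called, both higher, against 17.7% of all genes tested (11.6% called higher and 6.1% called lower). With the adjusted p alone, 6 of 7 members passed, 4 higher and 2 lower, against 58.7% of all genes (29.9% higher and 28.8% lower), so that passing on p alone is common in these libraries. The groups did not overlap in CPM for 6 of these 7 members, nor for 64.2% of all genes tested, so that such separation is common too. The median log2 fold change of the 7 members was 0.37, where that of all genes tested was 0.0020, and the median absolute value was 0.42 against 0.22.

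**Figure D1:**
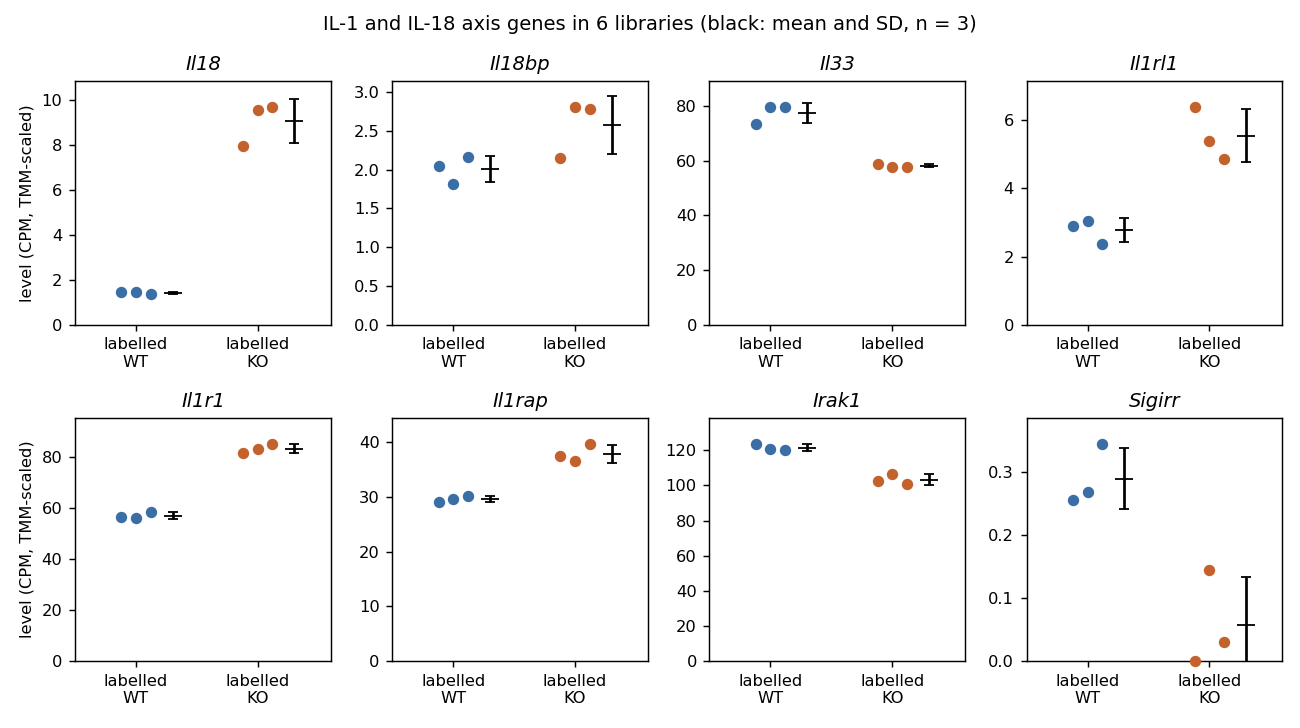
Level of 8 axis genes in CPM, scaled by TMM, in each of 3 WT-labelled libraries (blue) and 3 labelled KO (orange), with the mean and SD in black; each axis starts at 0. Il18 lies between 1.38 and 1.44 CPM in the WT-labelled libraries and between 7.94 and 9.66 CPM in the KO-labelled ones, and the groups overlap for Il18bp.

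Among the ligands, Il18 (ENSMUSG00000039217.13, chromosome 9, 50554827 to 50581840, by GENCODE M21 on GRCm38) had 45, 48 and 44 counts in the WT-labelled libraries and 281, 398 and 319 in the KO-labelled ones. Every KO-labelled library was thus far above every WT-labelled library. The levels were 1.42 ± 0.0325 and 9.05 ± 0.967 CPM (SD, n = 3 each), a 6.38-fold difference with a 95% interval of 5.30 to 7.69. Its log2 fold change was 2.67 (SE 0.12, adjusted p = 1.7e-09, edgeR), and leaving out single libraries moved it only between 2.63 and 2.75. Il18 is made by macrophages and by epithelial cells, so markers of both were read beside it. Of 7 epithelial markers, 3 had a row (Krt7, Cdh1 and Krt8, without Epcam, Krt18, Krt19 and Cldn4), and their summed level was 4.29 to 5.23 CPM in the WT-labelled libraries and 23.9 to 24.4 CPM in the KO-labelled ones. Nearly all of that sum was Krt7, with a log2 fold change of 2.40. Cdh1 was also called higher (1.08, adjusted p = 0.0045, edgeR). Krt8, too low to be tested, had 1, 0 and 2 counts in the WT-labelled libraries and 7, 9 and 12 in the KO-labelled ones. The part of epithelial cells in the Il18 result was not tested. Of 10 macrophage markers, 4 had a row (Lyz2, Cd14, Cd68 and Csf1r), without Ptprc, Adgre1, Itgam, Fcgr1, Mrc1 and Tyrobp. Their sum, mostly Lyz2 and Cd14, was 55.6 to 60.8 CPM in the WT-labelled libraries and 52.4 to 54.1 CPM in the KO-labelled ones. The 4 did not share a direction: Lyz2 (-0.17) and Cd14 (-0.18) were lower on the log2 scale, Cd68 stood at 0.42 (adjusted p = 0.0522, edgeR) without overlap, and Csf1r at 0.11 with overlap. The part of such cells in the Il18 result was not tested either.

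The window of 250 bases before and 50 after the RefSeq start of Il18 is shown because Il18 differed most. It is shown beside those of Il1rl1, the other member called, and of Il1rap, the 1 member with a match to an interferon response element. The Il18 window ends before the start that GENCODE gives for Il18, 50554827. Sequences are those of RefSeq on GRCm38.p6, all on the plus strand, 5′ to 3′, with matches to any searched motif in capitals.
Il18 chr9:50554450-50554749: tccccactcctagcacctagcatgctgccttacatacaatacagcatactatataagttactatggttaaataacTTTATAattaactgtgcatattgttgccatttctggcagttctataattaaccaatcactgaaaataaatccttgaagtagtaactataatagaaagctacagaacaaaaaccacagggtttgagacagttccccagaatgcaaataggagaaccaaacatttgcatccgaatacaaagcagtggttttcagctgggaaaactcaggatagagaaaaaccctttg
Il1rl1 chr1:40429320-40429619: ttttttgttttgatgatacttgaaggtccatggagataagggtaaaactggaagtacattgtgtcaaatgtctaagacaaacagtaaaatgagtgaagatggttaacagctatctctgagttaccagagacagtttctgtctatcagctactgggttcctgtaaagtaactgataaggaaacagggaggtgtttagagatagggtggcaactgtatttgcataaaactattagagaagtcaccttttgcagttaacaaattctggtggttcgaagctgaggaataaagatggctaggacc
Il1rl1 chr1:40439379-40439678: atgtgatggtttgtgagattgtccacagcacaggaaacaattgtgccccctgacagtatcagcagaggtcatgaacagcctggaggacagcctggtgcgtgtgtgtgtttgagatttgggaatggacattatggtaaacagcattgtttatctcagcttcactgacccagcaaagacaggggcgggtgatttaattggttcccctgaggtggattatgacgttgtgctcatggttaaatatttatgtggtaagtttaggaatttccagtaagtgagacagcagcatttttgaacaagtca
Il1rap chr16:26581455-26581754: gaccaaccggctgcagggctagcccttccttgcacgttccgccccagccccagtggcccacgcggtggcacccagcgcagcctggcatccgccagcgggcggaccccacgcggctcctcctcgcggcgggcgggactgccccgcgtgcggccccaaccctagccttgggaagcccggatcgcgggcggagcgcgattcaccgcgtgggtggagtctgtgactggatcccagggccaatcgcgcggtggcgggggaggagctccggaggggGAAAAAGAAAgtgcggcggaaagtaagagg
Windows were given for 9 of the 10 members (15 windows, Sigirr without one). On both strands, the core of the interferon-stimulated response element (GAAA, any 2 bases and GAAA again) was found in 1 of 15 windows, in Il1rap at position 271 of 300, and in 3.44% of all 32851 windows. The capitals in the Il18 window mark TATAAA on the opposite strand, a motif added after the values were seen, which 13.6% of all windows hold. The GLI motifs GACCACCCA and ACCACCCA, of which the shorter lies within the longer, were in 0 of 15 windows and in 0.253% and 1.48% of all windows. The AP-1 motif TGANTCA was in 1 window, of Il1rn, and in 7.81% of all. The Il18 window held 1 CpG and the Il1rl1 windows 1 and 3, whereas the Il1rap window held 33, with a median of 7 over all windows.

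Il33 (ENSMUSG00000024810.16, chromosome 19, 29925114 to 29960718) went the other way. It had 2299, 2668 and 2541 counts in the WT-labelled libraries and 2083, 2408 and 1910 in the KO-labelled ones, or 77.5 ± 3.62 and 58.2 ± 0.581 CPM (SD, n = 3 each). Once scaled for library size, all 3 KO-labelled libraries lay below all 3 labelled WT. The log2 fold change was -0.42 (SE 0.04, adjusted p = 1.34e-06, edgeR), which is under the 1.5-fold limit. None of the other ligands of the family (Il1a, Il1b, Il36a, Il36b, Il36g, Il36rn and Il1f10) had a row by symbol or identifier, so Il18 and Il33 were the ligands measured.

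The inhibitor of IL-18 differed less than IL-18 itself. Il18bp (ENSMUSG00000070427.4, chromosome 7, 102014885 to 102018690) had 64, 61 and 69 counts in the WT-labelled libraries and 76, 117 and 92 in the KO-labelled ones. In CPM the groups overlapped, since the lowest KO-labelled library (2.15) was just under the highest labelled WT (2.16). The log2 fold change was 0.37, with a 95% interval of 0.04 to 0.69 and an adjusted p of 0.0512 (edgeR), and the interval thus spans from almost no difference to 1.61-fold. Without replicate 1 of the KO-labelled libraries, the log2 fold change was 0.48 and the adjusted p 0.016, still under the 1.5-fold limit, so that Il18bp was not called there either. The Il18bp exons share 80 bases with Numa1 on the opposite strand, and whether counting used strand is not given in the sources used here. Per kilobase of exon, Il18 stood at 2.06, 2.31 and 1.87 times Il18bp in the 3 WT-labelled libraries. In the KO-labelled ones it stood at 10.9, 9.98 and 10.2 times, so that this ratio of RNA levels did not overlap between the groups.

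Among the receptors, Il1rl1 (ENSMUSG00000026069.15, chromosome 1, 40429570 to 40465415) had 91, 102 and 76 counts in the WT-labelled libraries and 226, 225 and 160 in the KO-labelled ones. The groups did not overlap, as for 64.2% of all genes tested, although the KO-labelled libraries spread more widely, from 4.85 to 6.38 CPM. The difference was 1.99-fold (95% interval 1.63 to 2.44), a log2 fold change of 1.00 (SE 0.13, adjusted p = 3.29e-05, edgeR). It lay between 0.88 and 1.08 with each library left out. ST2 exists as a membrane receptor and as a soluble decoy that keeps IL-33 from it, and GENCODE lists coding transcripts of 567 and of 337 codons for this gene. RefSeq gives it 2 start windows, shown above, and the counts of a whole gene do not separate these forms. Il1rl1 is also known from mast cells and type 2 lymphoid cells. Of 7 markers of such cells (Kit, Fcer1a, Cpa3, Gata3, Il7r, Cd3e and Nkg7), only Gata3 had a row, at 10.9 to 12.5 CPM in the WT-labelled libraries and 17.0 to 19.8 CPM in the KO-labelled ones. Gata3 was called higher (log2 fold change 0.64, adjusted p = 7.91e-06, edgeR). The part of such cells in the Il1rl1 result was not tested.

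Il1r1 (ENSMUSG00000026072.12, chromosome 1, 40225080 to 40317257), the signalling receptor of IL-1, had 1763, 1880 and 1865 counts in the WT-labelled libraries and 2881, 3457 and 2805 in the KO-labelled ones. These are 56.9 ± 1.29 and 83.1 ± 1.81 CPM (SD, n = 3 each), with no overlap. The fold was 1.46 (95% interval 1.39 to 1.54, log2 fold change 0.55, adjusted p = 3.48e-08, edgeR), just under the 1.5-fold limit. With upper-quartile scaling it was 0.60 on the log2 scale and past that limit. Its partner Il1rap (ENSMUSG00000022514.14, chromosome 16, 26581704 to 26730117) had 909, 989 and 960 counts in the WT-labelled libraries and 1324, 1518 and 1307 in the KO-labelled ones, or 29.5 ± 0.533 and 37.8 ± 1.62 CPM. The log2 fold change of Il1rap was 0.35 (SE 0.04, adjusted p = 1.86e-05, edgeR), in the same direction as those of Il1r1 and Il1rl1. Of its exon bases, 552 overlap Gm20319 on the opposite strand.

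Sigirr (chromosome 7, 141091175 to 141100572), the inhibitory receptor, had 8, 9 and 11 counts in the WT-labelled libraries and 0, 6 and 1 in the KO-labelled ones. It was lower in each KO-labelled library, but these levels, 0.290 ± 0.0482 and 0.0581 ± 0.0759 CPM (SD, n = 3 each), are near the level of 3 counts and did not pass the expression filter. Without the filter, edgeR gave a log2 fold change of -2.13 (SE 0.64, adjusted p = 0.0118), DESeq2 -2.24 (adjusted p = 0.0226) and limma on the deposited log2 values -2.71 (adjusted p = 0.00976).

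The genes of Il1r1 and Il1rl1 lie in a cluster of 6 interleukin receptor genes that spans 478 kb of chromosome 1. Il18rap, which encodes the accessory chain of the IL-18 receptor, was the third gene of the cluster with a row and the only further receptor of the wider list that had one. It had 54, 33 and 32 counts in the WT-labelled libraries and 103, 84 and 76 in the KO-labelled ones, a log2 fold change of 0.96 (SE 0.22, adjusted p = 0.00241, edgeR). All 3 measured receptor genes of the cluster were thus higher in the KO-labelled libraries, although Il1r1 was not called. Of all genes tested, 29.9% were higher by the adjusted p alone and 11.6% were called higher. Il18r1, the chain that binds IL-18 and that starts 0.137 kb after the end of Il1rl1, had no row, and neither did Il1r2 or Il1rl2. The nearest protein-coding genes with a row on either side, chosen by position after values were seen, were lower in the KO-labelled libraries. Map4k4 had a log2 fold change of -0.42 (adjusted p = 4.53e-08, edgeR) and Mfsd9 of -0.36 (adjusted p = 0.0018, edgeR).

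**Figure D2:**
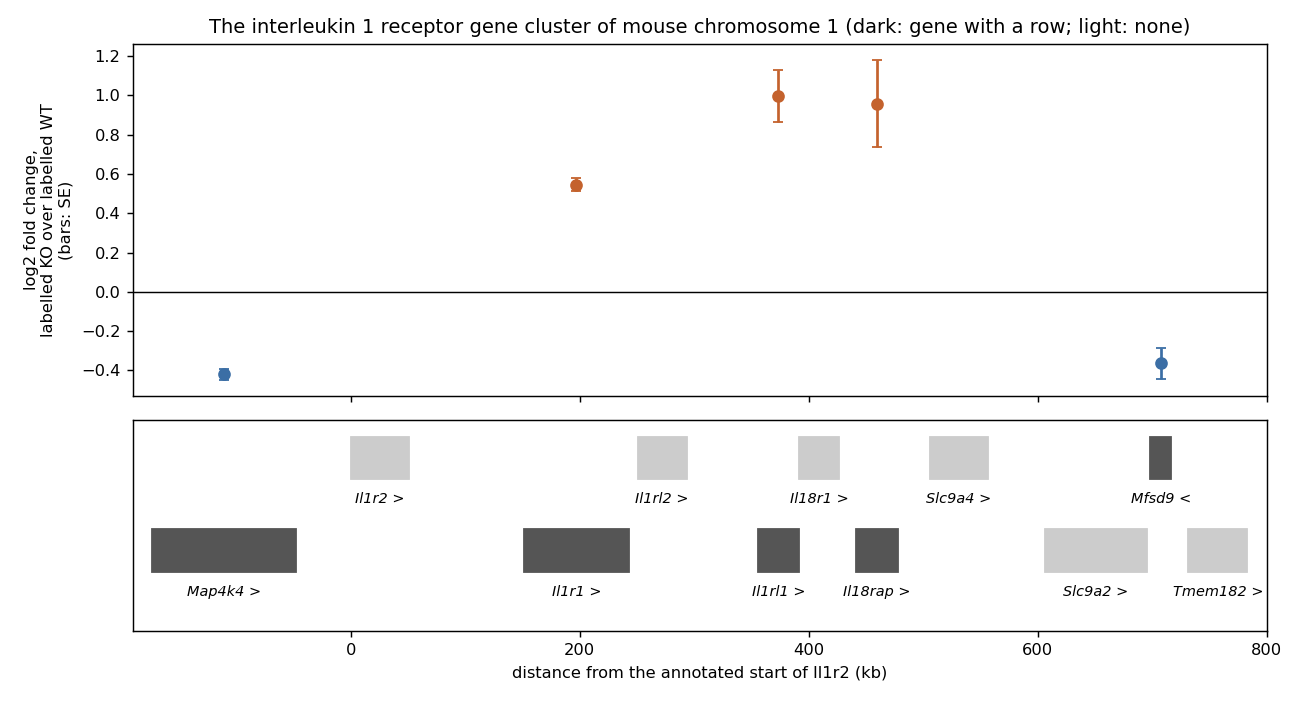
Log2 fold change (points, with SE) of genes with a row along the interleukin receptor cluster, above their annotated extents in kb from the start of Il1r2; arrowheads give the strand and light boxes are genes without a row. Il1r1, Il1rl1 and Il18rap lie above 0 (0.55, 1.00 and 0.96), and the flanking Map4k4 and Mfsd9 below it (-0.42 and -0.36).

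Irak1 (ENSMUSG00000031392.18, chromosome X, 74013914 to 74023918), the kinase next to the receptor complex, had 3873, 4037 and 3839 counts in the WT-labelled libraries and 3631, 4437 and 3319 in the KO-labelled ones. After scaling, these were 121 ± 1.85 and 103 ± 3.02 CPM (SD, n = 3 each) without overlap. The log2 fold change was -0.23 (SE 0.03, adjusted p = 4.6e-05, edgeR), the smallest of the 6 members past the adjusted p.

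Levels of different genes were compared as CPM per kilobase of annotated exon. In the WT-labelled libraries the order was Il33 (26.9 ± 1.25), Irak1 (25.8 ± 0.392), Il1r1 (8.95 ± 0.202), Il1rap (2.60 ± 0.0470), Il18 (1.37 ± 0.0315), Il18bp (0.664 ± 0.0570), Il1rl1 (0.403 ± 0.0508) and Sigirr (0.0951 ± 0.0158; SD, n = 3 each). Il33 and Irak1 did not differ beyond the sum of their SDs, and the other neighbours in the order did. In the KO-labelled libraries, Irak1 (21.9 ± 0.640) stood above Il33 (20.2 ± 0.201), and Il18 (8.78 ± 0.938) had moved past Il1rap (3.33 ± 0.143). Il18bp (0.853 ± 0.124) and Il1rl1 (0.804 ± 0.113) did not differ beyond their spread there. Il33 RNA was 60.3, 62.5 and 79.9 times that of Il1rl1 in the WT-labelled libraries and 22.0, 25.6 and 28.5 times in the KO-labelled ones, all per kilobase. The ligand thus outweighed its receptor in every library, by less in the KO-labelled ones.

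**Figure D3:**
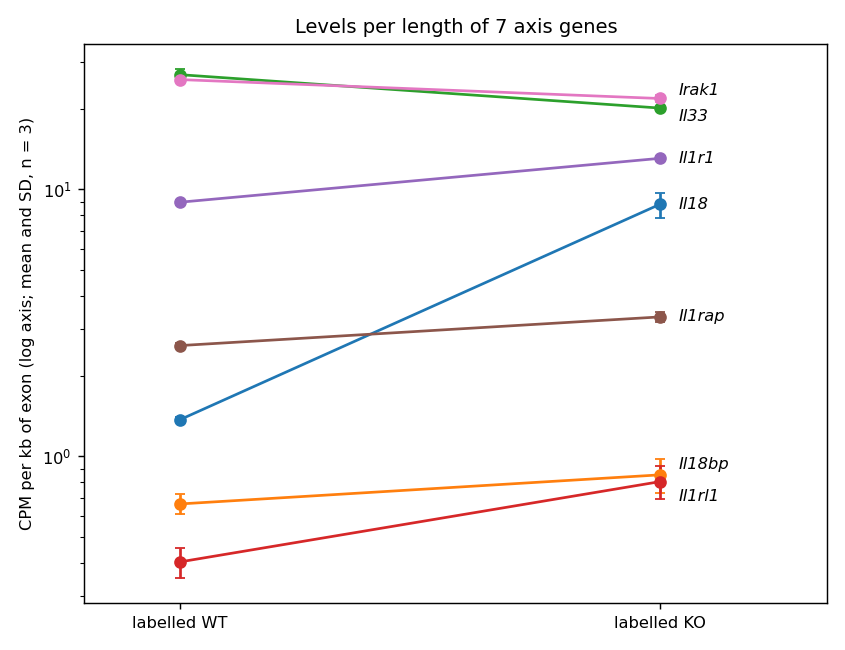
Level of 7 axis genes as CPM per kilobase of exon on a log axis (mean and SD, n = 3) in the WT-labelled libraries and labelled KO. Il18 crosses Il1rap, from 1.37 to 8.78, while Il1rl1 comes up to Il18bp.

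The other genes of the pathway were read from a list of 47, of which 28 had a row and were tested. Of these, 3 were called, 2 higher and 1 lower in the KO-labelled libraries, and with the adjusted p alone 18 passed, 7 higher and 11 lower. The 3 called are 10.7% of those tested, under the 17.7% of all genes, and 58.7% of all genes passed the adjusted p alone. The median log2 fold change was -0.07 and the median absolute value 0.18, under the 0.22 of all genes. Among 14 genes of ligand processing and inflammasomes, 7 had a row, and the inflammasome sensors and adaptor (Nlrp3, Nlrp1a, Nlrp1b, Nlrc4, Aim2, Mefv and Pycard) had none. Of the 7, only 1 was called (14.3%, beside 17.7% of all genes). With the adjusted p alone 5 passed, 2 higher and 3 lower, as did 58.7% of all genes. Gsdmd, whose product forms the pore through which processed cytokines leave the cell, was higher, with 1100, 1080 and 1104 counts against 1819, 2139 and 1704. Its log2 fold change of 0.60 (SE 0.04, adjusted p = 7.58e-08, edgeR) lay just past the fold limit, and without replicate 2 of the WT-labelled libraries it was 0.56. Casp4, which encodes the caspase that cuts gasdermin D in the noncanonical inflammasome, had a log2 fold change of -0.27 with a 95% interval of -0.65 to 0.10.

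All 20 listed genes of signalling below the receptors were tested, and 5% were called, beside 17.7% of all genes tested. Peli2, which encodes a Pellino ubiquitin ligase that acts on IRAK complexes, was the only one called, with 718, 804 and 801 counts in the WT-labelled libraries and 438, 463 and 380 in the KO-labelled ones. Its log2 fold change was -1.04 (SE 0.06, adjusted p = 1.51e-08, edgeR), with no overlap between the groups. With the adjusted p alone, 12 of the 20 signalling genes passed, as did 58.7% of all genes. Of the 12, 8 were lower, among them Peli3 (-0.54) and Tab3 (-0.51), and 4 were higher, among them the adaptor Myd88 (0.33) and the kinase Irak2 (0.23). Irak4, the kinase that activates IRAK1, had a log2 fold change of -0.15 (adjusted p = 0.0198, edgeR), which no longer passed without replicate 1 of the WT-labelled libraries (-0.12) or replicate 2 of the KO-labelled ones (-0.11).

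Genes known to be induced by IL-1 in fibroblasts did not move one way. Of 22 listed, 17 had a row and were tested, and 6 were called, 4 higher and 2 lower in the KO-labelled libraries, with a median log2 fold change of 0.02. That is 35.3% of those tested, beside 17.7% of all genes (11.6% called higher and 6.1% lower). Ptges, which encodes a prostaglandin E synthase, had 7, 6 and 13 counts in the WT-labelled libraries and 337, 360 and 302 in the KO-labelled ones, a log2 fold change of 5.06 (SE 0.18, adjusted p = 1.13e-10, edgeR). The serum amyloid gene Saa3 had at most 3 counts in each WT-labelled library and 30, 29 and 18 in the KO-labelled ones. Its mean CPM in the KO-labelled libraries was 7.27 times the highest level of 3 counts in a WT-labelled library. The 95% interval of the Saa3 fold from edgeR was 4.57 to 14.5. Nfkbiz, which encodes an IL-1-induced co-regulator of NF-kB, had 852, 893 and 840 counts against 2152, 2623 and 2004 (log2 fold change 1.20, SE 0.04, adjusted p = 4.79e-11, edgeR), and Il11 was higher by 1.86 on the log2 scale. The cytokine gene Il6 had 84, 106 and 98 counts against 150, 177 and 117, a log2 fold change of 0.44 (adjusted p = 0.00759, edgeR), under the fold limit. In the other direction, the protease gene Mmp3 had 320, 278 and 268 counts against 151, 186 and 163 (log2 fold change -0.98). Vcam1 had a log2 fold change of -0.59, at the fold limit, and it came just within that limit (-0.58 each time) without replicate 2 or replicate 3 of either group. Vcam1 also fell short of it with upper-quartile scaling, total-count scaling and at least 10 counts in every library, reaching -0.53 at the weakest. The chemokine gene Cxcl1, a frequent readout of IL-1, had a log2 fold change of 0.16 (95% interval 0.00 to 0.32, adjusted p = 0.0745, edgeR). Without replicate 2 of the WT-labelled libraries or replicate 3 of the KO-labelled ones, the adjusted p of Cxcl1 was 0.0414 and 0.022.

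**Figure D4:**
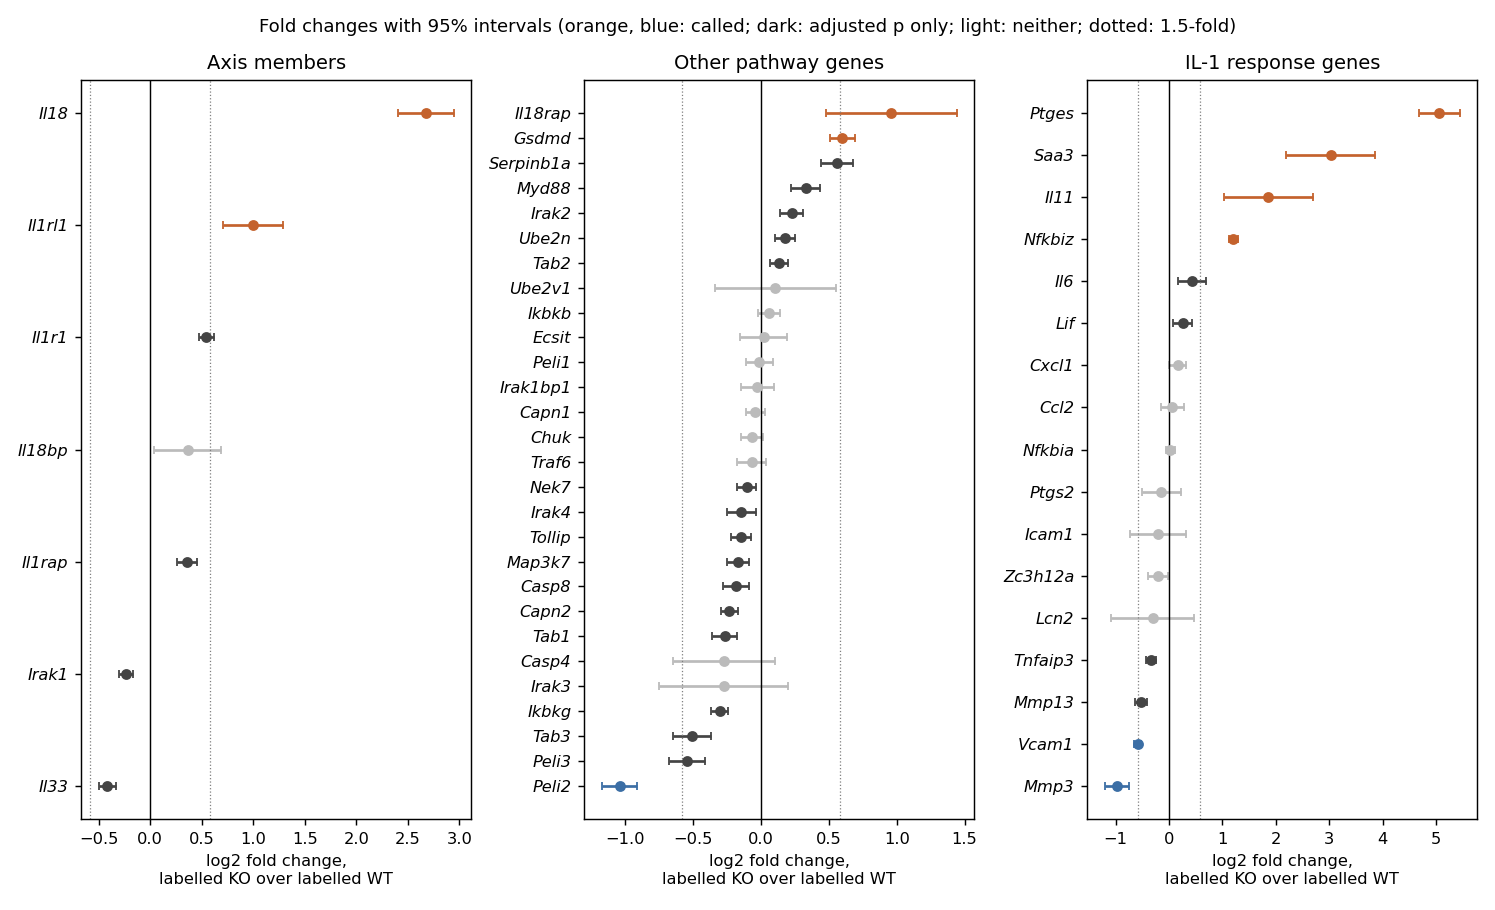
Log2 fold changes with 95% intervals for 7 members, 28 other pathway genes and 17 IL-1 response genes, with dotted lines at 1.5-fold; the 3 panels have different horizontal scales. Of the members, Il18 and Il1rl1 are called, and the other pathway genes lie mostly within 1.5-fold, with Peli2 at -1.04.

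Il18bp, Casp1 and Casp4 are known as interferon-induced genes, so 5 interferon-related transcription factors were read beside them. Of these 1 was called (20%, beside 17.7% of all genes tested) and 3 passed the adjusted p, which 58.7% of all genes did. All 3 were lower in the KO-labelled libraries. Irf7 had 318, 261 and 421 counts against 101, 120 and 112 (log2 fold change -1.77, adjusted p = 2.07e-06, edgeR). Stat2 (-0.52) and Irf9 (-0.44) were modestly lower, and replicate 3 of the WT-labelled libraries was the highest for both of these and for Irf7. Irf1 had a log2 fold change of -0.00074 and Irf8 of -0.39, neither past the test. Of the interferon-induced genes with a row, Il18bp (0.37) and Casp4 (-0.27) lay on opposite sides of 0, and neither passed the test.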

How the data were processed

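RNAseq libraries were made from polyadenylated RNA of 3 wells per group. The authors deposited raw counts per gene, without normalization, together with log2 CPM from voom of limma. The submitters' processing notes name STAR 2.7.2b, featureCounts, limma and the build GRCm38.p6, and the strand setting is not given in the sources used here. Genes with few counts had been removed. Of 14831 identifiers, 14822 match GENCODE M21 (GRCm38) without the version.

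The test was that of edgeR 4.0.16 under R 4.3.3 (TMM, filterByExpr, quasi-likelihood F test, Benjamini-Hochberg adjustment over 14289 genes). Standard errors and 95% intervals come from the fold change and its F statistic. Levels between genes were divided by the union of exons. A floor of 3 counts per library covers counting error only, and a fold against a group at the floor uses that group's highest floor in CPM. Pairs of replicates differed by more than sampling noise (chi-square per degree of freedom 2.47 to 7.53) and all 6 libraries were kept. Code was tested on simulated data. The named genes are the members, the genes called from each other list (up to 4 in each direction), any further ligand or receptor with a row, the interferon-related factors and the check of the labels. Krt7, Cdh1, Krt8, Dcn, Col3a1, Pdgfra, Pdgfrb, Thy1, Gata3, Lyz2, Cd14, Cd68, Csf1r, Il6, Casp4, Irak4, Myd88, Irak2, Peli3, Tab3, Cxcl1, Map4k4 and Mfsd9 were named outside that rule after their values were seen. Replicates are numbered in accession order. A listed gene is not reported here. Sigirr, Lcn2, Irf8 and Hhip were matched by identifier, and the Il36 genes were looked up under the older names that RefSeq synonyms link to GENCODE. Members and lists were chosen with earlier results of these data known. The alternatives were other scalings, filters on counts and limits on the fold, limma-voom, DESeq2 1.42.0, limma 3.58.1 on the deposited log2 values, and leaving out each library.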

Additional observations from a re-analysis of the deposited data

How the results depend on the processing

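All 7 tested members kept their direction under every alternative, and Il18, Il33, Il1r1, Il1rap, Il1rl1 and Irak1 kept an adjusted p under 0.05 in each. Il18bp passed with upper-quartile scaling (0.42), total-count scaling (0.40) and at least 10 counts in every library (0.37), and lay between 0.29 and 0.48 with each library left out. Without the fold limit 6 members, 18 other pathway genes and 10 IL-1 response genes passed, and with a limit of 2-fold 1 member, 1 other pathway gene and 4 IL-1 response genes did. With at least 10 counts in every library, 2 IL-1 response genes were called among 13 tested. With each library left out the counts were 2 for members, 3 to 4 for other pathway genes and 5 to 6 for IL-1 response genes. Where Sigirr was tested, 3 members were called. Irf1, near 0, turned to 0.056, 0.034 and 0.0065 with upper-quartile scaling, total counts and the stricter filter, and to between -0.025 and 0.017 without single libraries. Among other named genes, the adjusted p of Irak4 rose past 0.05 in 5 alternatives and that of Cxcl1 fell under it in 4. No paired analysis was possible because the labels give the wells no shared replicate numbers. Depth limits Sigirr, Saa3, Il11, Krt8 and Thy1, which have few counts.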

Other observations

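The 3 genes whose deposited log2 CPM values, centred on each gene's mean over 6 libraries, lay nearest to those of Il18 were Sema3d, Kprp and Slco2a1, at Euclidean distances of 0.187, 0.215 and 0.216. Sema3d, which encodes a secreted semaphorin, had 143, 160 and 138 counts in the WT-labelled libraries and 1020, 1387 and 1073 in the KO-labelled ones. Kprp, a keratinocyte gene, had 38, 49 and 43 against 261, 382 and 318. Slco2a1, which encodes a prostaglandin transporter, had 156, 172 and 146 against 1040, 1296 and 980. With 3 libraries in each group, such likeness mostly reflects a similar fold between the groups.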
